A study of Mus musculus with 25 samples.

Results

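Interferon-stimulated genes were followed through single myeloid cells of the mouse spinal cord, sampled from cords with an injury and from cords that had only the bone over them opened (laminectomy, Ctrl). The set was a list of 48 gene symbols, and its members were those listed genes that the deposited count matrices hold, 47 of the 22439 genes measured. Mx1, the remaining listed gene, was not analysed here. The series holds 30958 cells in 25 libraries, each from a pool of 1 to 3 mice, so p-values measure the spread between such libraries. Injured cords were taken on day 1, 2, 3, 10 or 21, written D1, D2, D3, D10 and D21.

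All mice carried Cx3cr1CreERT2, a Cre recombinase under drug control that sits in the Cx3cr1 locus, a gene active in microglia and in circulating monocytes. In 12 libraries, called mixed here, the labels name no further reporter and every YFP+ cell was sorted. In the strain Cx3cr1CreERT2:R26tdTomato, which adds a red reporter (RFP) that Cre switches on, RFP+/YFP+ cells were sorted as resident (5 libraries) and RFP-/YFP+ cells as infiltrating (7 libraries). For 1 further library of D3 the title (infiltrating) and the sort label (RFP+/YFP+) disagree. It is called D3_conflict 1 and entered no comparison between groups. D2_infiltrating 1 is labelled female but carries the code of the male libraries in the deposited cell table, and the label was used. Ctrl has 1 mixed library from females and 1 resident library from males. D1 has 2 infiltrating and 3 mixed libraries, and D2 has 1 infiltrating, 1 resident and 2 mixed. D3 has 1 infiltrating, 2 resident and 3 mixed, D10 has 2 infiltrating, 1 resident and 2 mixed, and D21 has 1 infiltrating and 1 mixed. Sort, strain and sequencing pool are split alike between mixed and resident libraries: mixed libraries were sequenced in pools 1 to 4 and resident libraries in pools 5 to 7. The ages of the mice and the induction of Cre are not given in the sources used here.

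Type I interferons act through a receptor of the chains IFNAR1 and IFNAR2, whose kinases JAK1 and TYK2 phosphorylate STAT proteins, among them STAT2. Together with IRF9, STAT2 is part of a complex that binds the interferon-stimulated response element (ISRE) in the promoters of many genes. The products block viral replication (Ifit, Oas, Rsad2, Bst2 and Ifitm3), sense nucleic acids (Ddx58, Ifih1, Zbp1), amplify the response (Irf7, Irf9, Stat2) or damp it (Usp18, Isg15). Interferon-gamma uses another receptor and favours guanylate-binding proteins (Gbp) and immunity-related GTPases (Irgm1, Igtp, Ifi47). Microglia are the macrophages that live in the cord, and monocytes enter it after injury and become macrophages.

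Cells carry 1 of 4 deposited type codes, which were named from marker genes. The code named microglia held 13289 cells and had 9 of 9 microglia markers at their highest, and the code named macrophages held 12841 cells with 8 of 9 macrophage and 5 of 8 monocyte markers at their highest. The other codes were called dendritic-like (2712 cells) and neutrophil-like (2116 cells). UMIs were summed per library and type for every pair with at least 20 cells and are given as CPM, scaled so that the UMIs of each sum add up to the same total. Libraries held between 486649 and 33204422 UMIs, the median microglial cell had 3062 UMIs and the median macrophage 9144. Cells that share their barcode with a cell of another library numbered 254. In summed cells of a type, more RNA per cell cannot be told apart from more cells that express a gene, and the shares of cells given later bear on that.

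The sequence element that interferon acts through was read in the promoters of the members. RefSeq promoter windows of GRCm38.p6, from 250 bases before to 50 bases after each gene's start, were matched by symbol to 39 of the 47 members. The ISRE core, GAAA followed by 2 bases of any kind and GAAA, read on both strands, was found in 25 of the 39 members (64.1%) and in 3.99% of the 27025 genes with a window. For comparison, the gamma-activated site (TTC, 3 bases of any kind and GAA) was found in 10 of 39 members against 9.55% of genes, and the kappaB site (GGG, 2 bases of any kind and TTTCC) in 1 of 39 against 1.89%. Below are 60 bases around the ISRE match of 6 members named in the comparisons, each on the strand of its gene, with the matched bases in capitals.
Isg15: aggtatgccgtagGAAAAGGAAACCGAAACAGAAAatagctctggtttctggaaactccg
Ifit1: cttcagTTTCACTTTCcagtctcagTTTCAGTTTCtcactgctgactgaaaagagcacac
Rsad2: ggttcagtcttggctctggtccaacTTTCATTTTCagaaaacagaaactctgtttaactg
Bst2: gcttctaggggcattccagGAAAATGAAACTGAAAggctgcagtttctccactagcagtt
Oas1a: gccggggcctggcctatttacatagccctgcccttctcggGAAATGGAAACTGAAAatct
Stat2: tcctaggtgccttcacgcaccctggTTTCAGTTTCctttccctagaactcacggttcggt

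These stretches lie at chr4:156200850-156200909 on the minus strand (Isg15), chr19:34640779-34640838 on the plus strand (Ifit1), chr12:26456538-26456597 on the minus strand (Rsad2), chr8:71537562-71537621 on the minus strand (Bst2), chr5:120907526-120907585 on the minus strand (Oas1a) and chr10:128270251-128270310 on the plus strand (Stat2). Overlapping matches were counted separately: Isg15 has 3, Ifit1, Bst2 and Oas1a have 2 each, and Rsad2 and Stat2 have 1 each. The nearest match lies 4 bases before the start in Oas1a, 56 in Isg15, 75 in Ifit1, 110 in Rsad2, 114 in Bst2 and 212 in Stat2. A match is a description of these letters and not a measured binding site.

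The first comparison set macrophages against microglia of the same library, so that both types share mice, capture and sequencing. Over the 8 libraries of D1 to D3 that held both, macrophages carried more of most members: 33 of the 46 members tested were higher and 0 were lower (edgeR's quasi-likelihood test with library as a block, Benjamini-Hochberg adjusted over 9596 genes). Among all genes tested, 19.2% were higher and 19.0% lower. The median log2 difference of the members was 1.10, and that of all genes 0.04. The largest differences were in Ifi47, an immunity-related GTPase (log2 difference 3.84 ± 0.28, 14.3-fold, adjusted p = 1.31e-09), in Oas3, a sensor of double-stranded RNA (3.43 ± 0.44), and in Rsad2, the antiviral protein viperin (2.92 ± 0.42). Slfn5 (2.86 ± 0.28) and Ifi213 (2.56 ± 0.31) completed the 5 largest.

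Among the regulators, Irf7 was higher by 1.83 ± 0.27, Stat2 by 1.05 ± 0.35 and Irf9 by 0.74 ± 0.19 on the log2 scale. Isg15, a ubiquitin-like modifier, was higher by 1.75 ± 0.26, Oasl2 by 1.96 ± 0.26, Ifit3 by 1.10 ± 0.34 and Usp18, the protease that removes Isg15, by 1.21 ± 0.28. Ifitm3, which blocks viral entry, was higher by 2.26 ± 0.40, Zbp1 by 1.20 ± 0.27, Ifi204 by 1.07 ± 0.19 and Irgm1 by 0.64 ± 0.22. The named members that did not pass were Bst2, the surface protein tetherin (0.01 ± 0.19, adjusted p = 0.97), Tap1 of the peptide transporter (0.30 ± 0.26), Ifi27l2a (0.54 ± 0.45) and Gbp2 (0.97 ± 0.45). The members that were higher thus included regulators, Oas, Ifit and Ifi200 genes, while the value for Bst2 was near 0.

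A module score, the mean over the 47 members of log2(CPM + 5), summarised each sum without a test. It was higher in the macrophages than in the microglia of 13 of the 14 libraries with both types. In libraries of D1 the difference was 2.01 in D1_mixed 1 and 1.82 in D1_mixed 3. At D2 it was 0.91 in D2_mixed 1, 1.21 in D2_mixed 2 and 0.93 in D2_resident 1. At D3 it was 1.02 in D3_resident 1 and 1.31 in D3_resident 2, while D3_mixed 3 alone was below 0, at -0.11, with 19 of 47 members higher in macrophages. In the other 13 libraries between 28 and 46 of the 47 members were higher in macrophages. Counted gene by gene, 16 members were higher in macrophages in all 8 early libraries, against 7.75% of all genes: Isg15, Isg20, Irf7, Oasl1, Oasl2, Oas1a, Oas3, Ifi207, Ifi209, Ifi211, Ifi213, Ifi47, Ifitm3, Zbp1, Slfn5 and Cmpk2. The same count was 19 in all 4 libraries of D10, against 12.2% of all genes, and 34 in both libraries of D21, against 23.9%, where Ifi35, Eif2ak2 and Igtp were lower in both.

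**Figure D1:**
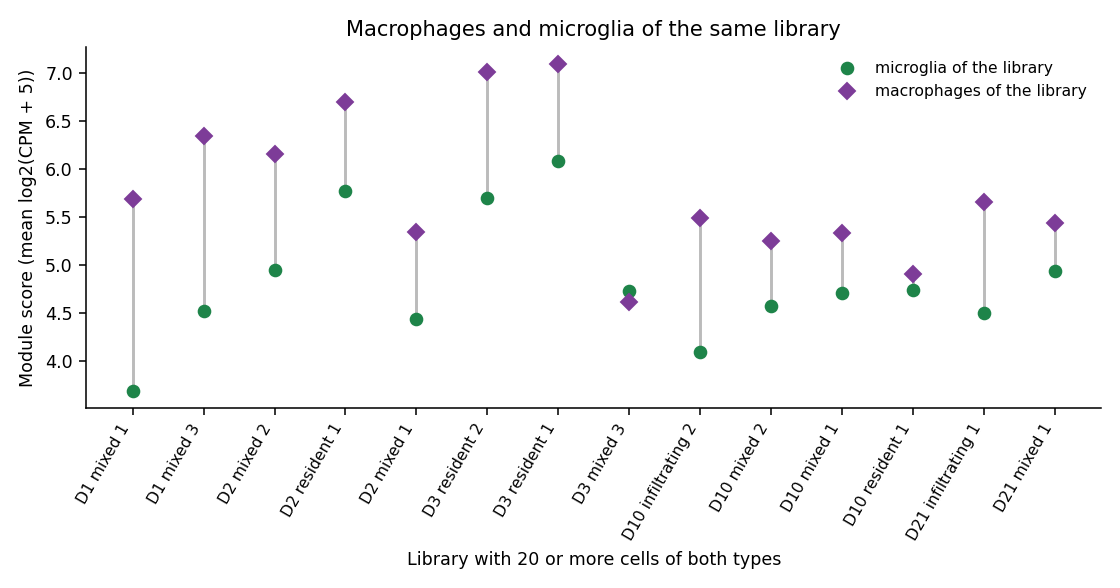
Module score (mean over 47 members of log2(CPM + 5)) of the microglia (circles) and the macrophages (diamonds) of each of the 14 libraries with at least 20 cells of both, with a line joining the types of a library. Macrophages lie above microglia in 13 libraries, and in D3_mixed 3 they lie 0.11 below.

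At D10 fewer members passed the same test: 9 of 46 were higher and 0 lower, with 8.67% of all genes higher and 6.64% lower, over 4 libraries. The members' median was 0.52, and that of all genes 0.05. Ifi47 (4.39 ± 0.42, 20.9-fold), Gbp3 (3.38 ± 0.51), Ifitm3 (2.73 ± 0.64), Oas3 (2.71 ± 0.77) and Ifi209 (2.31 ± 0.44) were the 5 largest. Cmpk2, Ifi211, Slfn5 and Ifi207 also passed. Of the named members, Irf7 (1.08 ± 0.42), Rsad2 (0.91 ± 0.71), Gbp2 (0.83 ± 0.68), Zbp1 (0.80 ± 0.44), Oasl2 (0.70 ± 0.39), Ifit3 (0.53 ± 0.51), Isg15 (0.52 ± 0.39) and Bst2 (0.50 ± 0.27) did not pass. Values for Usp18 (0.47 ± 0.43), Ifi27l2a (0.43 ± 0.68), Irgm1 (0.28 ± 0.32), Tap1 (0.23 ± 0.37), Ifi204 (0.12 ± 0.28), Stat2 (-0.17 ± 0.51) and Irf9 (-0.18 ± 0.27) lay nearer to 0. The count fell to 3 when D10_mixed 2 was left out. Without cluster 2 it was again 9, and the median was 0.13, with 27 of 47 members positive in place of 38 of 46.

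Whether the gap between the types differed between D10 and the early days was tested as an interaction. It was larger at D10 for Gbp3 (2.87 ± 0.61, adjusted p = 0.0036) and smaller for Slfn5 (-1.55 ± 0.48, adjusted p = 0.041), so 1 of 46 members passed in each direction, against 7.19% and 3.35% of all genes. Without cluster 2 Slfn5 no longer passed and the member called lower was Isg15. The members' median was -0.56, with 9 of 46 positive. Rsad2 had the most negative value of the members always named (-2.01 ± 0.82, adjusted p = 0.13), ahead of Oasl2 (-1.26 ± 0.47), Isg15 (-1.23 ± 0.47) and Stat2 (-1.22 ± 0.61), none of which passed. The lower calls numbered 9 without D3_mixed 3, and 0 without any 1 of 8 other libraries, among them 3 of D10.

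Macrophages of D10 carried less of several members than macrophages of D1. Rsad2 stood at 239 and 230 CPM in the 2 infiltrating and at 106 and 516 CPM in the 2 mixed libraries of D1, and at 33.0 and 13.2 CPM (infiltrating) and 14.6 and 8.87 CPM (mixed) at D10. Isg15 stood at 889, 297, 314 and 564 CPM at D1 and at 97.9, 116, 106 and 68.8 CPM at D10. For both genes every D1 library lay above every D10 library. In the fit over all 15 macrophage sums of infiltrating and mixed libraries, with sex as a term, Rsad2 fell by 3.83 ± 0.79 on the log2 scale (14.2-fold, adjusted p = 0.0082) and Isg15 fell by 2.38 ± 0.62 (adjusted p = 0.022).

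In all, 10 of 47 members were lower at D10 than at D1 and 0 were higher, against 7.04% and 7.31% of 8577 genes. The same 10 were called when D2_infiltrating 1 was given its deposited sex code (7.29% of genes lower). The members' median was -1.25 and that of all genes 0.01, and 3 of 47 members had a positive value. The other falls were in Ifit1 (-2.81 ± 0.80), Oas3 (-2.65 ± 0.82), Oasl1 (-2.53 ± 0.76), Ifi204 (-1.87 ± 0.57), Rtp4 (-1.82 ± 0.54), Usp18 (-1.79 ± 0.54), Ifi207 (-1.51 ± 0.45) and Ifi35 (-1.37 ± 0.33). Gbp2 (-1.74 ± 0.87), Ifit3 (-1.69 ± 0.79), Zbp1 (-1.68 ± 0.56, adjusted p = 0.057), Irf7 (-1.52 ± 0.57), Oasl2 (-1.28 ± 0.59) and Stat2 (-1.13 ± 0.65) did not pass. Irgm1 (-0.79 ± 0.54), Tap1 (-0.65 ± 0.41), Irf9 (-0.61 ± 0.39), Ifi27l2a (-0.57 ± 0.59) and Ifitm3 (-0.49 ± 0.57) did not pass either. Bst2 was at 0.95 ± 0.44 (adjusted p = 0.16), with 629, 468, 339 and 311 CPM at D1 and 1100, 1311, 500 and 336 CPM at D10, ranges that overlap.

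The number of falls depended on the libraries in the fit: 1 member was called when D1_infiltrating 1 or D10_mixed 1 was left out, 2 to 4 without D10_infiltrating 1, D10_infiltrating 2, D10_mixed 2, D1_infiltrating 2 or D21_mixed 1, and there were 24 when D3_infiltrating 1 or D3_mixed 3 was left out. The median stayed between -1.44 and -0.80 in those fits. Over the macrophage list the summed CPM of monocyte markers ranged from 2635.6 to 6378 at D1 and from 710.4 to 5648 at D10, all 8 with UMIs at both times. Macrophage markers ranged from 11288 to 22723 CPM at D1 and from 2680 to 7367 at D10, and microglia markers from 290.6 to 1396 and from 998.3 to 3345. Oligodendrocyte markers ranged from 38.1 to 87.5 CPM at D1 and from 92.7 to 137 at D10, all 6 with UMIs at both times. Their part in the falls was not tested. D1 and D10 libraries share no sequencing pool, so the effects of pool and day cannot be told apart.

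At D3 the 2 macrophage libraries in the fit stood far apart. The score was 7.89 in D3_infiltrating 1 and 4.62 in D3_mixed 3, the highest and the lowest of all macrophage sums. Ifit3 was at 890 CPM in the first and 15.3 CPM in the second, and Rsad2 at 692 and 22.6 CPM. The D3 macrophages outside this fit were at the high end: the score was 7.10 and 7.01 in the resident libraries and 7.08 in D3_conflict 1, and Ifit3 was at 358, 417 and 276 CPM. No member passed between D3 and D1 in either direction, nor did any of the 8577 genes (0.0%), and 0 members were at an unadjusted p under 0.05. DESeq2 also called 0 members, and the median was 0.34, with 39 of 47 positive. The direction turned in mixed libraries alone, where D3_mixed 3 is the only D3 library: 16 of 45 members were lower and 1, Bst2, higher (4.82% and 6.69% of genes), with a median of -1.41. With sequencing pool as a term 0 passed (0.0% of genes), with a median of -2.07 and 1 of 47 positive.

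Between D21 and D1 no member passed either, against 1.95% of genes higher and 1.61% lower. The median was -1.04, 5 members were at an unadjusted p under 0.05, and DESeq2 called 2 lower, Rsad2 and Ifi35. In mixed libraries alone, with 1 library at D21 and 2 at D1, the fitted median was 0.74, with 35 of 45 members positive and 0 passing (0.268% of genes higher and 0.134% lower). That fit sets a female D21 library against male D1 libraries through a term for sex that rests on D2_mixed 1 and D2_mixed 2. Without the term for sex the median was -0.27, with 20 of 45 positive, and Bst2 and Ifih1 passed as higher (3.73% of genes), and the score was 5.44 at D21 against 5.69 and 6.34 at D1. Rsad2 was at 30.9 CPM in D21_infiltrating 1 and 38.8 CPM in D21_mixed 1 (-2.82 ± 1.04, adjusted p = 0.13), below all 4 D1 libraries. Isg15 was at 241 and 149 CPM (-1.25 ± 0.76), also below all 4. The smallest numbers of macrophages behind these values were 89 and 78 cells at D21 and 28 cells at D1.

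Macrophages sorted as resident gave a second view of the same course. Their score was 6.70 at D2, 7.10 and 7.01 at D3 and 4.91 at D10. The infiltrating sort had scores of 7.02 and 6.21 (D1), 5.66 (D2), 7.89 (D3), 5.14 and 5.49 (D10) and 5.65 (D21). The mixed sort had 5.69 and 6.34 (D1), 5.35 and 6.16 (D2), 4.62 (D3), 5.33 and 5.25 (D10) and 5.44 (D21). All 5 sums of D10 lay below all 4 sums of D1, and at D3 the mixed library lay below the other 4. Dendritic-like cells of infiltrating libraries scored 5.86 and 6.88 at D1 and 4.62 and 5.30 at D10. Dendritic-like cells of D3 scored 6.88 in D3_infiltrating 1 and 5.425 in D3_mixed 3, so these differences were not confined to macrophages.

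**Figure D2:**
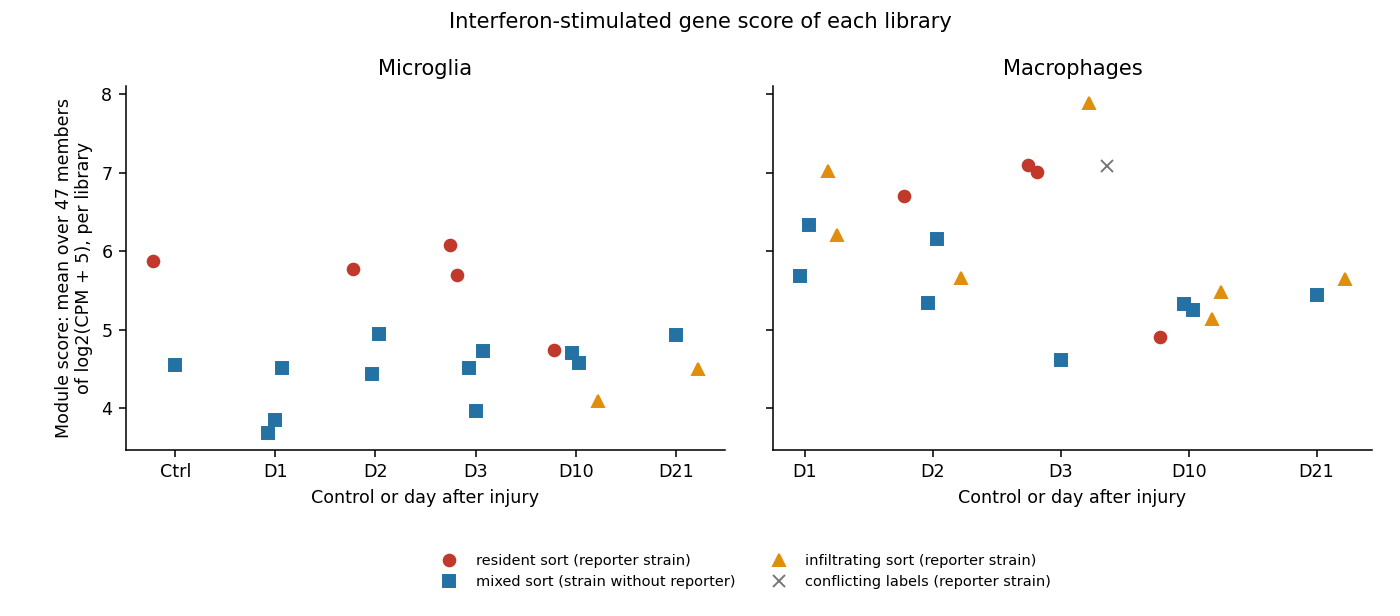
Module score (mean over 47 members of log2(CPM + 5)) of each library by time point, for microglia and macrophages, with colour and shape giving the sort. In microglia the resident libraries lie at 5.70 to 6.08 at Ctrl, D2 and D3 and at 4.74 at D10, and in macrophages the D10 libraries lie at 4.91 to 5.49.

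In microglia the libraries were split by sort. At Ctrl, D2 and D3 microglia of the resident sort carried more of nearly every member than microglia of the mixed sort at the same time, and at D10 the sorts had nearly the same score. The score was 5.87 in the resident and 4.55 in the mixed library of Ctrl. At D2 it was 5.77 against 4.44 and 4.95, and at D3 6.08 and 5.70 against 4.51, 3.97 and 4.73. At D10 it was 4.74 against 4.71 and 4.57. The difference of the means was 1.32 at Ctrl, 1.08 at D2, 1.49 at D3 and 0.10 at D10, beside a pooled SD of 0.335 within a time point and sort.

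Ifit3, an RNA-binding antiviral protein, showed the pattern gene by gene. Its CPM in resident against mixed libraries was 146 against 16.97 at Ctrl, 190 against 24.1 and 81.4 at D2, 276 and 153 against 24.7, 1.69 and 30.8 at D3, and 52.8 against 50.7 and 29.7 at D10. The lowest of these, D3_mixed 2, rests on 1 UMI. Ifitm3 was at 327 against 54.1 CPM at Ctrl, 550 against 212 and 96.2 at D2, 1159 and 938 against 237, 92.8 and 292 at D3, and 228 against 130 and 155 at D10. Bst2 was at 700 against 272 CPM at Ctrl, 771 against 327 and 526 at D2, 1193 and 974 against 379, 189 and 462 at D3, and 469 against 373 and 340 at D10. For all 3 genes the groups did not overlap at any of these time points, but at D10 the Ifit3 values differed by little.

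The resident library or libraries lay above every mixed library in 46 of 47 members at Ctrl, 40 at D2, 42 at D3 and 25 at D10. Among all genes with at least 10 UMIs these shares were 54.7%, 34.9%, 10.2% and 38.8%. At Ctrl, D2 and D3 alike, 36 of 47 members lay above, against 2.12% of genes. The 11 others were Irf9, Stat2, Ifi207, Ifi47, Ddx58, Gbp2, Gbp5, Gbp7, Herc6, Eif2ak2 and Igtp. D2_mixed 2 holds 23 microglia, and without it 42 of the 47 lay above.

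A fit with time point, sex and sort as terms, chosen after the values were seen, tested the split over 12 mixed and 5 resident sums. It called 8 of 47 members higher and 0 lower in resident microglia, against 0.139% and 0.00926% of 10801 genes, which are 15 genes higher and 1 lower. All 47 members had a positive value, with a median of 1.40 beside 0.01 for all genes, and 36 of them were at an unadjusted p under 0.05. The 8 were Ifit3 (2.53 ± 0.48, 5.78-fold, adjusted p = 0.0445), its near copy Ifit3b (2.45 ± 0.41), Ifitm3 (1.92 ± 0.31), Usp18 (1.84 ± 0.35), Oasl2 (1.81 ± 0.29), Ifi27l2a (1.74 ± 0.27), Oas1a (1.65 ± 0.30) and Bst2 (1.22 ± 0.22). Isg15 (1.80 ± 0.36, adjusted p = 0.056) and Zbp1 (1.80 ± 0.35, adjusted p = 0.052) just missed the threshold. Rsad2 (2.23 ± 0.58), Ifi204 (1.31 ± 0.33), Irf7 (1.12 ± 0.37), Irgm1 (1.09 ± 0.27), Stat2 (1.00 ± 0.34), Tap1 (0.85 ± 0.20), Gbp2 (0.41 ± 0.46) and Irf9 (0.25 ± 0.23) did not pass.

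The ISRE-binding factors Stat2 and Irf9 and the GTPase genes Gbp2 and Irgm1 thus had smaller values than Ifit3 and Ifit3b, but differences between members were not tested. DESeq2 called 24 members, with all 8 among them, against 0.444% of genes. The count was 14 without the D10 libraries (0.243% of genes) and 3 without cluster 2 (0.0369%), a cluster that spans microglia and macrophages. It was 0 when Ctrl_mixed 1, Ctrl_resident 1, D2_mixed 2 or D2_resident 1 was left out, with medians between 1.35 and 1.58. It was 2 without D2_mixed 1, 3 without D3_mixed 3 or D3_resident 1, and 5 without D10_mixed 2 or D3_mixed 1. It was 14 without D1_mixed 1, 16 without D10_resident 1 and 18 without D1_mixed 3. The shares of all genes in these fits with a library left out are not given.

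Of the 8 called genes outside the list, Oas1g and Ifi206 belong to families of the members. Cx3cr1 itself, the locus that carries the recombinase, was higher in resident microglia by 3.63 ± 0.41, with 200.8 CPM in the mixed and 1609 CPM in the resident library of Ctrl. Ccr1, another chemokine receptor, was higher by 4.01 ± 0.69, and Hpgds, a prostaglandin synthase, was lower by 1.12 ± 0.16 on the log2 scale. Summed monocyte markers in these microglia ranged from 0 to 29.6 CPM in mixed and from 2.22 to 42.4 in resident libraries. Macrophage markers ranged from 17.7 to 3540 and from 51.2 to 1903, with all 9 having UMIs in both, and neutrophil markers from 28.1 to 219 and from 37.6 to 199, with Ly6g at 0 in both. Their part in the split was not tested, and strain, sort and sequencing pool cannot be told apart.

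Whether the split differed at D10 was tested with a further term. The members' median was -1.89, beside -0.04 for all genes, and 2 of 47 were positive. No member passed, nor did any of the 10801 genes (0.0%), and 18 members were at an unadjusted p under 0.05. The share of all genes at that level is not given, so nothing is concluded from this count. The values were -2.91 ± 1.10 for Ifit3, -2.64 ± 0.77 for Isg15, -2.03 ± 0.74 for Ifitm3, -1.20 ± 0.55 for Bst2 and -0.40 ± 0.80 for Ifi27l2a. DESeq2 called 0, with 15 members at an unadjusted p under 0.05, and 2 were at that level in edgeR without D3_resident 1. The term rests on 1 resident library at D10. Within pool 7, which holds 3 of the 5 resident libraries, the score was 5.87 at Ctrl, 5.77 at D2 and 4.74 at D10. In this series the Ctrl and D2 libraries are male and D10_resident 1 is female, so day and sex change together. The mixed libraries of D10 are male, so sex also differs between the sorts at D10.

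**Figure D3:**
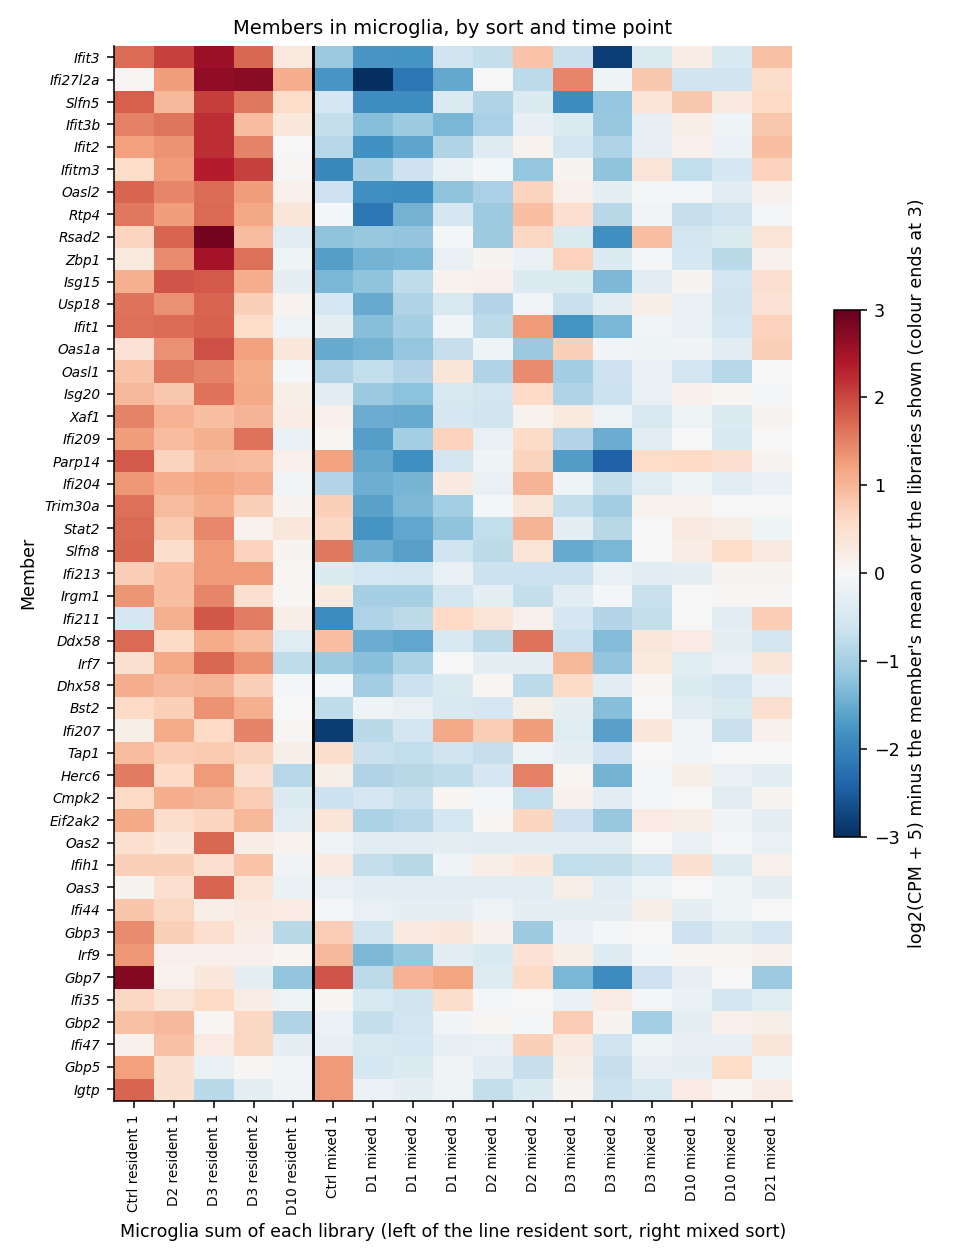
Each row is a member and each column the microglia of a library, with resident libraries left of the line and mixed libraries right of it. Colour is log2(CPM + 5) minus the member's mean over the libraries shown, and the columns of Ctrl, D2 and D3 of the resident sort are red for most members while D10_resident 1 is near the mean.

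The course of microglia over time was therefore read with the sort in view. Against Ctrl, D1 microglia, all from mixed libraries, showed 13 of 47 members lower and 0 higher, where 22.7% and 23.9% of 10801 genes were lower and higher. The members' median was -1.36, and that of all genes -0.01. Ctrl and injured microglia lie in different deposited clusters: the 1429 and 458 microglia of the Ctrl libraries make up the whole of cluster 1, which has 1887 cells, and D1 microglia lie mostly in cluster 5. Stat2 stood at 27.2 CPM (mixed) and 62.04 CPM (resident) in Ctrl and at 1.09, 1.99 and 3.95 CPM in the D1 libraries, a fall by 3.50 ± 0.67 on the log2 scale (11.3-fold, adjusted p = 0.0005) without overlap. Ifit3b (-3.23 ± 1.16), Oasl2 (-2.98 ± 0.82), Gbp5 (-2.92 ± 0.74), Slfn8 (-2.78 ± 0.69), Ddx58 (-2.74 ± 0.73), Parp14 (-2.57 ± 0.73), Trim30a (-2.04 ± 0.50), Herc6 (-1.83 ± 0.60), Xaf1 (-1.64 ± 0.57), Irf9 (-1.64 ± 0.36) and Igtp (-1.59 ± 0.32) also fell. Ifi44 passed as well, but with 1 UMI over the D1 libraries its change cannot be sized.

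The other named members did not pass: Usp18 (-1.70 ± 0.82), Ifit3 (-1.66 ± 1.09), Irgm1 (-1.28 ± 0.55), Gbp2 (-1.21 ± 0.65), Tap1 (-0.90 ± 0.44), Ifi27l2a (-0.75 ± 0.79), Ifi204 (-0.56 ± 0.67), Isg15 (-0.10 ± 0.83), Rsad2 (-0.09 ± 1.18), Irf7 (0.08 ± 0.70), Zbp1 (0.22 ± 0.87), Bst2 (0.43 ± 0.58) and Ifitm3 (0.43 ± 0.86). With sort as a term, 10 of the 13 falls remained (20.7% of genes lower) and 4 members were higher (22.5% of genes), Ifi211 (3.38 ± 0.77), Ifi207 (2.87 ± 0.81), Ifitm3 (1.80 ± 0.55) and Bst2 (1.10 ± 0.38). Stat2 then fell by 2.97 ± 0.60. In that fit members were lower about as often as all genes. The number of falls therefore cannot be called particular to the members. In mixed libraries alone, with 1 Ctrl library, 1 member was lower (Stat2) and 1 higher (Ifitm3), with 1.9% and 8.91% of genes. The Ctrl library there is female and those of D1, D3 and D10 are male, and the term for sex rests on D2_mixed 1 and D2_mixed 2, the latter with 23 microglia. Without that term 7 members were lower (19.2% of genes), all among the 13, and 6 higher (20.5%), with a median of -0.22. Without Ctrl_resident 1 the counts were 5 lower and 2 higher, with a median of -0.28. At D1 the microglia-marker sum was 4787 to 9100 CPM, against 26611 and 30015 in Ctrl, with all 9 markers present at both times. Macrophage markers went the other way, from 17.7 and 51.2 CPM in Ctrl, with Gpnmb and Fabp4 at 0, to between 1013 and 1801 CPM at D1, with all 9 present. Astrocyte markers were at 118 and 151 CPM in Ctrl and between 8.12 and 42.9 CPM at D1, with all 5 present at both. The neutrophil list was at 199 and 219 CPM and between 38.1 and 103 CPM, with Ly6g and Mmp9 at 0. Plasmacytoid dendritic markers were at 257 and 288 CPM and between 54.3 and 80.9 CPM, with Klk1 at 0 at both times, and dendritic markers at 80.04 and 82.5 CPM and between 28.3 and 57.97 CPM, with Flt3, Cd209a and Clec9a at 0 at D1. Endothelial markers were at 16.7 and 27.2 CPM and between 8.53 and 13.96 CPM, with Cldn5 and Kdr at 0 at D1. The part of these differences in the falls was not tested.

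At D3 many members were higher again than at D1. Between D1 and D3, 19 of 47 members rose and 0 fell, where 8.62% of genes were higher and 10.2% lower, and the members' median was 1.67 beside 0.02. Ifi27l2a, a mitochondrial protein, went from 40.3, 75.8 and 120 CPM at D1 to 998, 326 and 634 CPM in the mixed and 2287 and 2375 CPM in the resident libraries of D3, a rise of 3.81 ± 0.76 (14.1-fold, adjusted p = 0.0027). Ifit3b (3.89 ± 1.09), Oasl2 (3.40 ± 0.76), Ifit2 (3.07 ± 0.84) and Stat2 (2.93 ± 0.63) rose as well, as did Slfn5, Isg20, Oas1a, Zbp1, Ifi47, Ddx58, Rtp4, Slfn8, Xaf1, Trim30a, Dhx58 and Irf9, by 0.97 to 2.75. Oas3 had no UMI in the 3 libraries of D1 and Oas2 had 1, so their calls carry no size. Of the other named members, Ifit3 (2.52 ± 1.02), Rsad2 (2.36 ± 1.01), Usp18 (1.98 ± 0.75), Irf7 (1.70 ± 0.59), Ifitm3 (1.66 ± 0.74) and Irgm1 (1.28 ± 0.49) did not pass. Nor did Gbp2 (1.12 ± 0.57), Isg15 (1.06 ± 0.72), Ifi204 (1.06 ± 0.58), Tap1 (0.92 ± 0.37) and Bst2 (0.56 ± 0.47).

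Microglia markers summed to between 4787 and 9100 CPM at D1 and between 10995 and 14625 CPM at D3, and dendritic markers to between 28.3 and 57.97 CPM and between 7.94 and 22.6 CPM, with Clec9a at 0 at both times. Neither list's ranges overlapped, and their part in the rises was not tested. The mixed libraries of D1 were all in pool 3, which held no Ctrl or D3 library. Pool and day therefore cannot be told apart in D3 against D1 or in D1 against Ctrl.

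D3 includes 2 resident libraries and D1 none. The members' median of 1.67 became 1.06 with sort as a term, 0.63 in mixed libraries alone and 0.44 with a replicate block. With sort as a term the rises numbered 8 (6.59% of genes), all among the 19: Ifi27l2a (2.91 ± 0.41), Ifit3b (2.48 ± 0.71), Oasl2 (2.45 ± 0.45), Stat2 (2.44 ± 0.56), Ifit2, Oas1a, Trim30a and Xaf1. In mixed libraries alone they numbered 4 (4.61% of genes), which were Ifi27l2a, Oasl2, Stat2 and Oas1a, and 5 without a term for sex (5.1%). Leaving out D1_mixed 1 or D1_mixed 2 left 3 rises, D3_resident 2 left 7, D3_resident 1 left 10, and without D3_mixed 2 there were 29.

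Against Ctrl, later microglia had few calls among the members. At D2, 1 member was higher and 2 lower, with 17.6% and 12.2% of genes. The rise was in Ifi211 (3.01 ± 1.01) and the falls in Gbp7 (-2.45 ± 0.71) and Igtp (-1.47 ± 0.32). At D3, 5 were higher and 3 lower, with 20.1% and 17.6% of genes. Ifi211 (3.28 ± 0.98), Ifi27l2a (3.07 ± 0.86), Zbp1 (2.55 ± 0.87), Oas1a (2.09 ± 0.76) and Irf7 (1.78 ± 0.68) rose, and Gbp7 (-3.11 ± 0.66), Gbp5 (-2.27 ± 0.73) and Igtp (-1.89 ± 0.30) fell. With sequencing pool as a term none of these 8 passed at D3 (2.35% of genes higher and 0.00926% lower), the median was 0.03, and 4 members were at an unadjusted p under 0.05 in edgeR. At D10, 0 were higher and 3 lower, with 8.06% and 2.22% of genes: Gbp7 (-2.82 ± 0.67), Gbp3 (-2.62 ± 0.59) and Igtp (-1.17 ± 0.30).

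The GTPase genes Gbp7 and Igtp were thus lower at each of these 3 time points. Igtp stood at 59.1 and 82.5 CPM in Ctrl and between 9.93 and 31.2 CPM in all 11 resident and mixed libraries of D2, D3 and D10. Gbp7 stood at 63.4 and 119 CPM in Ctrl and between 0 and 22.2 CPM in those 11. Neither gene's ranges overlapped, and these comparisons share the 2 Ctrl libraries. With sort as a term both remained lower at D2, D3 and D10. With sequencing pool as a term Gbp7 remained lower at D2 and D10 and Igtp at D10, and neither passed at D3. In mixed libraries alone Igtp passed at D2 and at neither D3 nor D10, and Gbp7 passed at none of them. Without a term for sex in those libraries Igtp passed at D2 and D3 and Gbp7 at D3. Microglia markers in the 11 libraries summed to between 7074 and 16049 CPM, below both Ctrl libraries, and macrophage markers to between 967 and 3540 CPM, above both. Astrocyte markers, at 10.3 to 82.2 CPM, neutrophil markers, at 28.1 to 150 CPM, and plasmacytoid dendritic markers, at 75.2 to 256.3 CPM against 256.5 and 287.5, lay below both Ctrl libraries as well, and the part of these differences in the 2 genes' falls was not tested.

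The count of rises against Ctrl moved both ways with the terms of the fit. A term for sequencing pool gave 0 higher and 1 lower member at D2 (10.9% and 3.74% of genes), 0 and 0 at D3, and 4 and 4 at D10 (14.9% and 7.31%). The term for sort gave more rises. At D2 it gave 6 higher and 2 lower members, with 17.5% of genes higher and 12% lower. At D3 it gave 9 and 3 (19.9% and 17.2% of genes), where Rsad2, Ifitm3, Ifi207 and Bst2 joined the 5 rises named above. At D10 it gave 3 and 3 (7.69% and 1.94%), with Ifi211, Ifi27l2a and Oas1a higher. Mixed libraries alone, with their single Ctrl library, gave 5 higher and 1 lower at D2 (11.9% and 6.69% of genes). They gave 2 higher at D3 (5.22%), Ifi27l2a and Ifitm3, and 0 lower at D10 (0.00897%). Without a term for sex they gave 5 and 1 at D2 (12.1% and 8.36%), 6 and 3 at D3 (13.3% and 9.03%) and 2 and 0 at D10 (2.85% and 0.502%).

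At D21, with 1 mixed library, 0 members passed in either direction, against 6.12% of genes higher and 0.861% lower. The median was 0.35, 4 members were at an unadjusted p under 0.05, and DESeq2 called 1 member lower, Gbp7. With sort as a term the 1 library of D21 was called higher in 10 members (5.74% of genes): Ifi211 (4.63 ± 0.92), Ifi207 (3.70 ± 1.05), Oas1a (3.51 ± 0.63), Ifitm3 (3.28 ± 0.69), Ifit3b (3.14 ± 0.79), Ifi27l2a (3.06 ± 0.61), Ifi47, Zbp1, Ifit2 and Bst2. The mixed libraries alone also gave 10 (4.83% of genes), with Ctrl a single library there too. The spread in both fits comes from the other time points, so a lone library is assumed to vary as those do, and the calls have no replicate behind D21. Set directly beside the single mixed Ctrl library, D21_mixed 1 had 365 against 54.1 CPM of Ifitm3, 651 against 272 of Bst2 and 517 against 103 of Ifi27l2a, both from females. Other members lay the other way in that pair, with 3.70 against 63.4 CPM of Gbp7, 25.5 against 59.1 of Igtp, 32.9 against 78.6 of Parp14 and 13.9 against 27.2 of Stat2.

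The other named members at D2, D3, D10 and D21 did not pass against Ctrl. At D2 they ranged from -0.91 ± 0.36 (Irf9) to 1.89 ± 0.89 (Zbp1), at D3 from -0.67 ± 0.32 (Irf9) to 2.27 ± 1.14 (Rsad2), at D10 from -0.72 ± 0.62 (Gbp2) to 1.26 ± 0.84 (Ifi27l2a) and at D21 from -0.71 ± 0.84 (Stat2) to 1.73 ± 0.92 (Irf7). The members' medians were 0.33, 0.43 and -0.32 at D2, D3 and D10. Leaving out Ctrl_mixed 1 turned the D2 and D3 medians to -0.36 and -0.20, and leaving out Ctrl_resident 1 turned the D10 median to 0.78, so the direction of these medians rests on which Ctrl library is used.

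Between D3 and D10 no member passed, against 2.96% of genes higher and 3.92% lower. The median was -0.88, with 7 of 47 positive and 8 at an unadjusted p under 0.05, and DESeq2 called 2 lower, Zbp1 and Ifi27l2a. The named members ranged from -2.12 ± 0.95 (Rsad2) to 0.045 ± 0.29 (Irf9). With sort as a term 1 member, Ifi27l2a, was lower, by 1.53 ± 0.37 on the log2 scale (3.5% of genes lower), and the median was -0.33. In mixed libraries alone the direction turned: the median was 0.26, with 27 of 44 members positive and 0 passing (0.341% of genes higher and 0.708% lower).

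To see whether few or many cells carried the transcripts, every cell was thinned to 2000 UMIs, shallower cells were left out, and cells with UMIs of at least 3 of 10 core members (Ifit1, Ifit2, Ifit3, Ifit3b, Isg15, Irf7, Oasl2, Rsad2, Usp18 and Cmpk2) were called rich. Intervals are exact Clopper-Pearson 95% intervals and cover counting error only. At this depth rich cells were a minority in every library. Cells with none of the core transcripts numbered 7800 of 9880 microglia and 5986 of 12288 macrophages. Without thinning the highest share in a library was 65.6% in infiltrating macrophages, 69.2% in macrophages of D3_conflict 1 and 28.7% in resident microglia. Whether few or many cells count as rich thus depends on the depth read. The class is a range of a count and not a cell type, since 378 microglia and 1329 macrophages lay just under it with 2 core members and 173 and 763 just inside it with 3.

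Among microglia the rich share was 9.11% (6.62 to 12.2) in the resident and 0.927% (0.495 to 1.58) in the mixed library of Ctrl. At D2 it was 11.96% (10.2 to 13.9) in D2_resident 1 and 2.00% (0.867 to 3.90) in D2_mixed 1, while D2_mixed 2, with 12 cells deep enough, had 8.33% (0.211 to 38.5). At D3 it was 14.7% (7.56 to 24.7) and 8.69% (6.25 to 11.7) in the resident libraries and 1.33%, 0% and 3.35% in the mixed ones, where 0 of 92 cells allows a share of up to 3.93%. At D10 the resident share of 3.097% lay between the mixed shares of 4.04% and 1.68%. The mixed libraries of D1 had 1.19%, 0.935% and 2.56%, and D21_mixed 1 had 4.65%. Without thinning the Ctrl shares were 16.2% and 1.89%, at median depths of 3760 and 3810 UMIs per cell in those libraries.

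Among macrophages the share at D1 was 29.1% (26.6 to 31.8) and 12.6% (11.1 to 14.2) in the infiltrating and 9.52% (1.17 to 30.4) and 34.1% (20.5 to 49.9) in the mixed libraries. At D2 it was 6.12% in the infiltrating, 12.5% and 18.5% in the mixed and 27.0% in the resident library. At D3 it ran from 2.64% (2.09 to 3.28) in D3_mixed 3 to 41.8% (39.4 to 44.3) in D3_infiltrating 1. At D10 it was 1.52%, 1.03%, 5.71%, 3.85% and 3.23%, and at D21 7.14% and 5.08%. The lowest D1 share thus lay above the highest D10 share, though D1_mixed 1 rests on 2 rich cells of 21.

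In the captures of D1_mixed 1 and D1_mixed 3 the rich share was 1.19% and 2.56% among microglia, at median depths of 3072 and 2652 UMIs, beside 9.52% and 34.1% among macrophages, at 5684 and 4294 UMIs. The part of RNA free in the droplets was not tested.

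**Figure D4:**
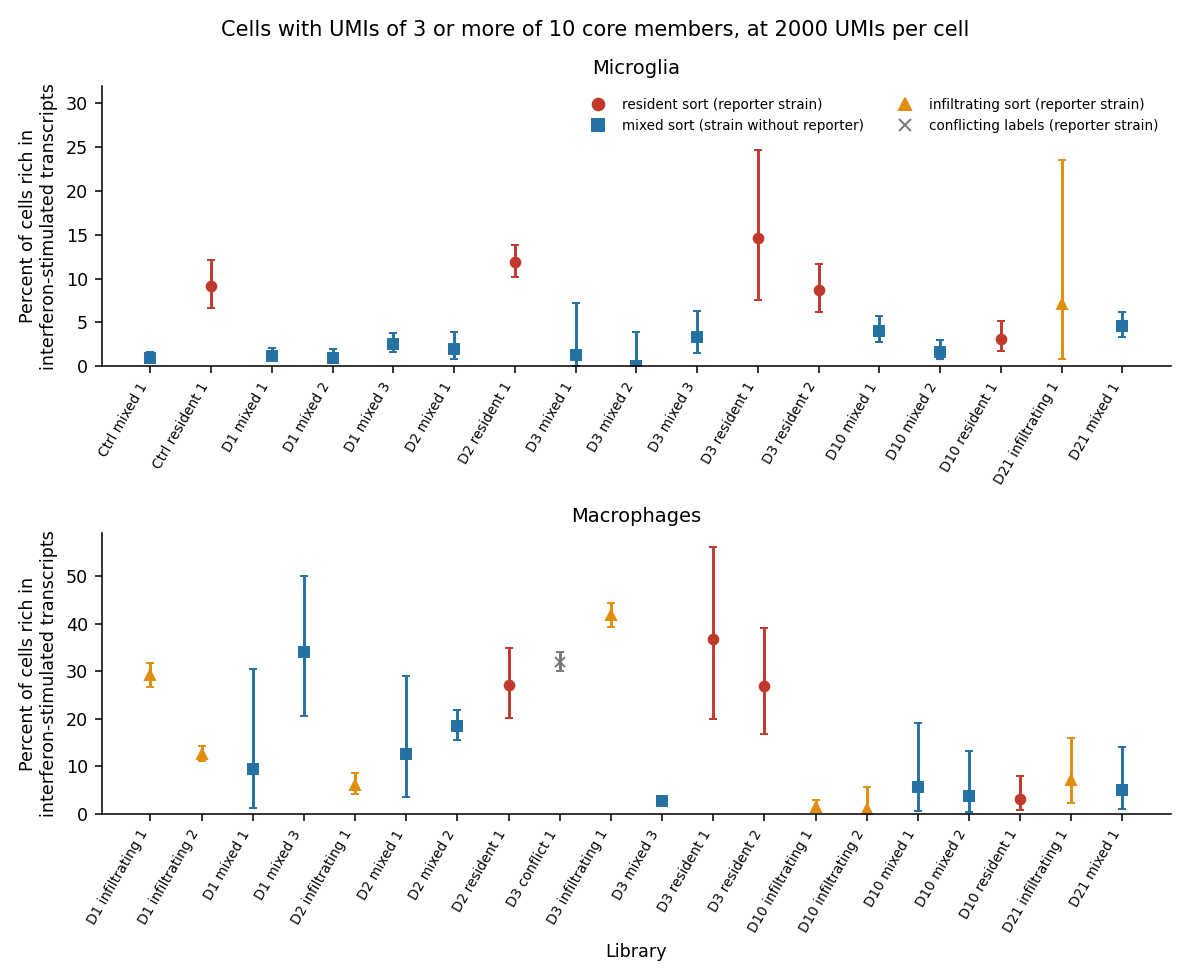
Percent of cells with UMIs of 3 or more of 10 core members after thinning to 2000 UMIs per cell, for each library, with exact Clopper-Pearson 95% intervals and colour and shape giving the sort. Resident microglia of Ctrl, D2 and D3 lie at 8.69% to 14.7% and D1 macrophages at 9.52% to 34.1%.

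Across the 16 deposited clusters, which were made from all genes and are described without a test, the members' pooled values were highest in macrophage cluster 11, with 4504 cells, 35.0% of those deep enough rich, and a score of 7.42 over the summed cells, pooled over libraries. Of its cells 27.9% came from D1_infiltrating 2, and its score ran from 5.43 in D2_mixed 1 to 8.21 in D3_infiltrating 1 over 10 libraries. Within a library, D3_conflict 1 included, cluster 11 scored above cluster 12 in 4 of 6 libraries that hold both, above cluster 15 in 6 of 7, above cluster 16 in 4 of 5 and above cluster 9 in 5 of 5. The exceptions were D1_infiltrating 2 and D2_mixed 2 for cluster 12 and D2_infiltrating 1 for clusters 15 and 16. Cluster 12, also macrophages, had 24.7% and 7.15, and the dendritic-like cluster 15 had 24.0% and 6.72. The neutrophil-like cluster 16 had 11.6% and 6.15. Macrophage cluster 9 had 2.57% and 4.80, and 75.3% of its 3554 cells came from D3_mixed 3. Clusters 1, 3, 4, 5 and 6, mostly microglia, had between 2.92% and 5.32%.

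Libraries of the resident and mixed sorts were also set side by side within clusters 1 to 6. The resident library or libraries scored above every mixed library within the same cluster in 8 of the 9 pairs of cluster and time at Ctrl, D2 and D3, and in 2 of 4 at D10. These pairs include cluster 2, which spans microglia and macrophages, at D2, D3 and D10. At D10 cluster 2 was 1 of the 2 with the resident library above, at 6.05 against 3.87 and 4.41. The exception at D3 was also cluster 2, where D3_mixed 3 was at 7.01 and the resident library at 5.55. In cluster 3 at D3, for example, the resident libraries were at 5.86 and 5.98 and the mixed ones between 3.77 and 5.07.

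**Figure D5:**
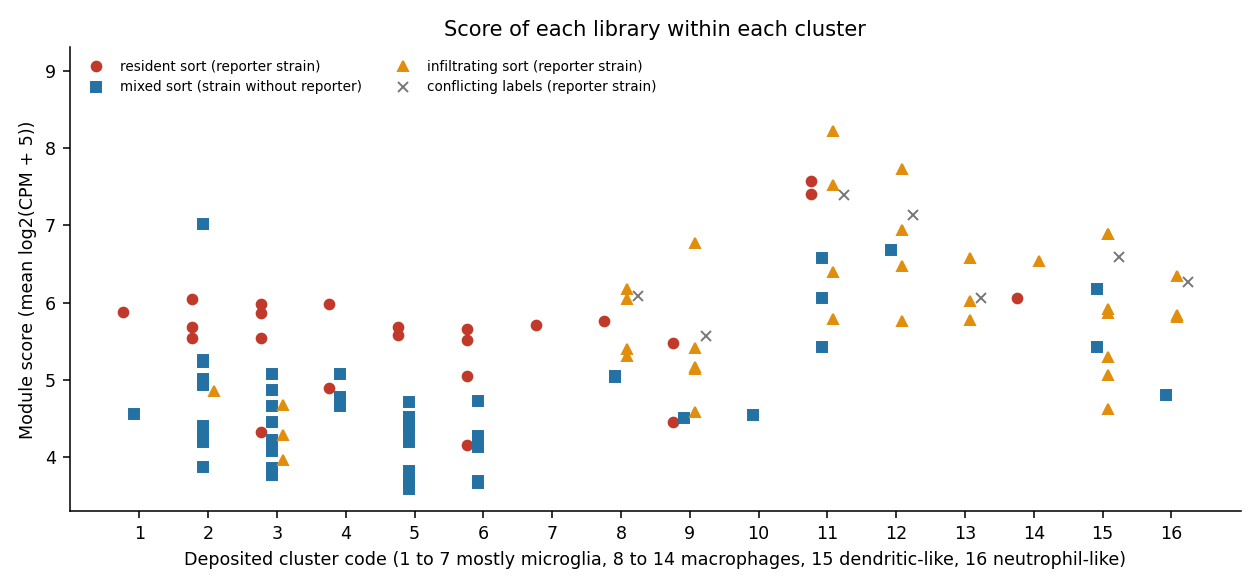
Module score of each library within each deposited cluster that holds at least 20 of its cells, with colour and shape giving the sort. Cluster 11 reaches the highest value, 8.21, and within clusters 1 to 6 most resident libraries lie above the mixed ones.

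Other genes of the pathway were read from lists. Interferon transcripts themselves were nearly absent: Ifnb1 had 21 UMIs in 8 of 30958 cells, 18 of them in microglia and 3 in macrophages, Ifng had 1 UMI, and the Ifna and Ifnl genes listed had 0. Among the receptor and signalling genes 0 were higher in D1 microglia against Ctrl, and Tyk2 (-2.62 ± 0.41), Ifngr1 (-2.20 ± 0.29), Ifnar1 (-1.99 ± 0.34) and Jak2 were among those that fell. Of 5 inhibitors of the signal, Socs1 (-1.998 ± 0.57) and Pias1 (-1.52 ± 0.30) fell and Ptpn2 (1.06 ± 0.32) rose. Of 13 sensors and inducers, Tlr9 (-3.40 ± 1.01), Tlr3 (-2.62 ± 0.37) and Tmem173 (-2.37 ± 0.38), which encodes STING, fell and Ikbke (3.80 ± 0.95) rose. Of 4 other interferon regulatory factors, Irf1 (-2.25 ± 0.37), Irf2 (-1.38 ± 0.34) and Irf8 (-0.87 ± 0.28) fell.

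Of 15 genes of class I antigen presentation, 4 were higher in D1 microglia and 0 lower, and the list's median was -0.15. The 4 were Psme2 (1.36 ± 0.27), Psme1 (1.06 ± 0.33), Psmb10 (0.96 ± 0.25) and Psmb8, all of the proteasome. Of 8 gamma-biased genes, Gbp9 (-3.33 ± 0.70), Irgm2 (-3.26 ± 0.45) and Socs1 fell and Cd74 (1.24 ± 0.42) rose. Of 3 chemokines tested, Ccl5 (4.56 ± 1.16) and Ccl12 (3.02 ± 0.80) rose and 0 fell. These shares stand beside the 22.7% of genes lower and 23.9% higher in that comparison.

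In macrophages at D10 against D1, where 7.31% of genes were higher and 7.04% lower, Ifngr1 (1.00 ± 0.31) and Ifnar2 (0.71 ± 0.22) rose and Stat3 (-1.33 ± 0.33) fell among 10 receptor and signalling genes. The inhibitors Socs3 (-3.28 ± 0.51) and Socs1 (-2.75 ± 0.53) fell, 2 of 5, and so did the chemokines Cxcl10 (-4.80 ± 1.07) and Ccl12 (-4.33 ± 0.64), 2 of 3. Tmem173 (1.39 ± 0.38, 1 of 12 sensors) and Irf8 (0.83 ± 0.22, 1 of 3 factors) rose, and 0 of 15 class I genes passed. Between resident and mixed microglia 0 genes of any of these lists passed, and the median of the 15 class I genes was 0.57.

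In early macrophages against microglia of the same library, where 19.2% of genes were higher and 19.0% lower, 6 of 10 receptor and signalling genes were higher and 0 lower, with Ifnar1 (1.42 ± 0.25) and Jak2 (1.29 ± 0.30) the largest. Of 12 sensors and inducers 3 were higher, led by Ikbke (2.23 ± 0.33), and 4 lower, led by Tlr3 (-2.33 ± 0.43) and Tmem173 (-1.85 ± 0.28). Of 15 class I genes 6 were higher and 1 lower. Of 7 gamma-biased genes 4 were higher and 0 lower, Cd74 (4.24 ± 0.51), H2-Ab1 (2.83 ± 0.47), Socs1 and Gbp9, and of 3 chemokines Ccl12 (-2.57 ± 0.48) was lower and 0 higher. Of 5 inhibitors Socs1 and Socs3 were higher, and 0 of 3 other interferon regulatory factors passed.

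Some members cannot be counted apart from close relatives by the ends of their transcripts. Of the 90-base windows in the last 500 bases of their transcripts, 59.4% are shared with other genes for Ifi211 (Ifi205 and Mndal), 42.3% for Oas1a (Oas1g), 37.1% for Ifi209 (Ifi214), 21.0% for Herc6 (Gm45193), 17.8% for Trim30a (Trim30d), 9.49% for Slfn8 (Slfn9 and Slfn10-ps), 7.54% for Ifi213 (Ifi206 and Ifi208) and 6.57% for Ifit3 (Ifit3b). The share was at most 1.78% for each of the other members tested. Values of these members are uncertain to that extent.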

How the data were processed

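The deposited matrices, 1 per library, hold UMI counts of genes in cells as the authors made them. Cell Ranger 3.1.0 and the builds GRCm38 and mm10 are named in the submitters' processing notes. The authors also deposited a table of cell type and cluster codes and of the percent of mitochondrial counts per cell, which reached 22.65% and set no further filter. Counts were summed per library and type (at least 20 cells) and tested with edgeR 4.0.16 in R 4.3.3 (quasi-likelihood, TMM, filterByExpr, adjusted p under 0.05 by Benjamini-Hochberg over all genes). Terms were time point and sex, or library as a block between types. All tests are 2-sided and values after ± are standard errors. Counts at an unadjusted p under 0.05 and counts with a library left out are given for members alone. The shares of all genes in those fits are not given, so such counts cannot be called particular to the members. Doublets were not called, and no correction for RNA free in droplets was made. The members and all lists were chosen with earlier results of these data known. Named were 16 members always, and the 5 largest rises and falls per comparison, with further called members named after their values were seen. The comparison of resident with mixed libraries and the term for sort were chosen after seeing the data. Alternatives were DESeq2 1.42.0, median-of-ratios scaling, no expression filter, mixed libraries alone, with and without a term for sex, a pool term, a replicate block and each library left out. The fit was tested on simulated data.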

Additional observations from a re-analysis of the deposited data

Results flagged for a closer look

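Among 52 groups of 4 to 10 libraries examined for the named members, 4 held a library far from the others by Dixon's criterion, where chance gives about 1 in 20. In microglia of D3, D3_resident 1 had the highest level of Stat2, 51.6 CPM beside 6.75 to 17.3 CPM in the other libraries. The same library had the highest level of Rsad2, 125 CPM beside 0 to 29.4 CPM. In macrophages of D1, D1_mixed 1, with 28 cells, had the lowest level of Irf9, 16.9 CPM beside 68.1 to 75.7 CPM. In the same group D1_infiltrating 1 had the highest level of Irgm1, 121 CPM beside 41.4 to 50.4 CPM.

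The gap between macrophages and microglia differed between D10 and the early days for Gbp3, by 2.87 on the log2 scale (edgeR adjusted p = 0.0036), and for Slfn5, by -1.55 (edgeR adjusted p = 0.041), each by the interaction term.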

How the results depend on the processing

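Counts of members past the threshold moved with the processing as follows, and the cause was not tested. Without an expression filter, D1 against Ctrl in microglia gave 2 higher and 22 lower, D2 3 higher, D3 8 higher and D21 1 higher and 1 lower. In that setting D3 against D1 gave 29 higher and 1 lower, and D10 against D3 4 lower. The change of the gap between types gave 2 higher and 7 lower, and resident against mixed 26 (0.416% of genes). Shares of all genes are not given for the other counts without that filter. Mixed libraries alone gave against Ctrl 1 higher and 1 lower (D1), 5 and 1 (D2), 2 and 0 (D3), 0 lower (D10) and 10 higher (D21), and 4 higher for D3 against D1. In macrophages they gave 1 higher and 16 lower for D3 against D1, with D3_mixed 3 as the only D3 library. There Gbp5 reversed to 2.54 (D1 against Ctrl) and 2.72 (D3 against Ctrl) and Gbp3 to 5.41 (D10 against Ctrl), with edgeR adjusted p of 0.93, 0.93 and 0.83. These signs go against the libraries' own levels: Gbp5 was at 14.8 CPM in Ctrl_mixed 1, 0.656 to 2.55 CPM at D1 and 0 to 4.12 CPM at D3, and Gbp3 at 12.5 CPM and 1.84 and 3.04 CPM at D10. They rest on a term for sex set by D2_mixed 1 and D2_mixed 2. Without it neither reversed, and mixed libraries alone gave against Ctrl 6 higher and 7 lower (D1), 5 and 1 (D2), 2 and 0 (D10) and 10 higher (D21), 5 higher and 1 lower for D3 against D1, and in macrophages 1 and 14 for D3 and 2 higher for D21 against D1. That fit and the deposited sex code, which moved no count of calls past 1.5 times, were added after seeing the data. Sort as a term gave 4 higher for D1 against Ctrl, then 6 (D2), 9 (D3), 3 (D10) and 10 (D21), 8 for D3 against D1 and 1 lower for D10 against D3. DESeq2 gave 2 higher at D2, 1 lower at D21, 2 lower for D10 against D3, 2 lower for macrophages of D21, and 24 for resident against mixed. A pool term gave 0 higher and 1 lower at D2, 0 and 0 at D3 and 4 higher at D10, and was not run where pool and group cannot be separated. Without cluster 2 the counts were 0 higher at D2 and 3 for resident against mixed, and without D10 libraries the latter was 14.

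Replicate numbers of mixed libraries showed no pairing (correlations of same-numbered libraries from -0.20 to 0.12). With so few mixed libraries per time point this check could not exclude pairing. With the replicate block, D3 against D1 gave 3 higher and 1 lower and D10 against D3 3 higher, with a median of 0.74 and 32 of 42 members positive.

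With 1 library left out, higher and lower counts in microglia against Ctrl ran from 0 to 2 and 5 to 22 (D1), 0 to 4 and 0 to 3 (D2), 0 to 7 and 2 to 5 (D3), 0 to 1 and 0 to 3 (D10) and 0 to 3 and 0 to 1 (D21). They ran from 3 to 29 and 0 to 1 for D3 against D1, and from 0 to 1 lower for D10 against D3. In macrophages the lower counts ran from 0 to 1 at D3, 1 to 24 at D10 and 0 to 1 at D21. The gap between types gave 27 to 36 early and 3 to 11 at D10, its change 0 to 9 lower, and resident against mixed 0 to 18.

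With 1 CPM added in place of 5, resident minus mixed scores were 1.66 at Ctrl, 1.43 at D2 and 1.90 at D3. Median rich shares with at least 2 core genes were 20.5% in resident and 4.27% in mixed microglia and 7.89% in D10 macrophages. Without thinning they were 16.2% and 3.18%, and 36.6% and 9.97% in D1 and D10 macrophages.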
